A study of Mus musculus with 3 samples.

Results

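The immunoglobulin heavy chain locus of the mouse lies on the reverse strand of chromosome 12. In exome libraries of lymphocyte DNA from 3 animals it was covered at 686 of the 438161 autosomal SNPs that distinguish the C57BL/6 (B6, maternal) from the CAST/EiJ (CAST, paternal) chromosome. The members were all SNPs between the distal end of the constant genes and the last V gene, from 113258920 to 116000450 of build GRCm38, and they fell in 117 of 28403 autosomal genes with a listed SNP. These genes were 6 constant genes, the joining gene Ighj3, 6 diversity (D) genes, Adam6b and Adam6a, and 102 variable (V) genes. The V genes were split by their order from the D genes into proximal, middle and distal groups of 34 genes each.

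Every cell analysed had the strain background C57BL/6 x CAST/EiJ F1 and came from a female. The cells were sorted as descendants of hematopoietic stem cells (HSCs) of a donor that were injected into a sublethally irradiated recipient female. The donors were a few weeks old and the recipients young adults. E6.2 was a polyclonal animal that received 50 HSCs of donor animal 6, and its library was made from 58000 sorted B220+IgM+ B cells. E6.43 and E15.10 were monoclonal animals with 1 HSC each, of donor animal 6 and donor animal 15, and their libraries were made from 250000 and 177000 sorted CD4+CD8- T cells of the thymus. The labels place the B cells of E6.2 in the spleen and the methods of the study place them in the bone marrow. Irradiated hosts keep some leukocytes of their own, which differ from the donor cells in the surface marker Ly5. The study found a small share of recipient cells among the sorted donor cells of its RNA libraries. Their share in these DNA libraries was not measured here. There was 1 library of each animal, so no difference has a replicate error, and clonality, tissue and cell type cannot be told apart because the only polyclonal library is the B cell library. Intervals in brackets are 95% intervals that cover counting error only, and they are too narrow because SNPs covered by the same read pair are not independent.

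The heavy chain of an antibody is assembled in developing B cells by V(D)J recombination. The recombinase made of RAG1 and RAG2 first joins a D to a J segment and then a V segment to the joined DJ, and the DNA between the joined segments is cut out of the chromosome. The constant genes lie on the other side of the J segments and stay in place until class switching. T cells can carry D-to-J joints in their heavy chain locus, but complete V-to-DJ joints are a property of B cells.

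The recombinase cuts at recombination signals that flank each segment. A signal consists of a heptamer next to the segment, a spacer and a nonamer, and the spacer has 23 bases beside V and J segments and 12 bases beside D segments. The following sequences are the J segment and the D segments that carried counts, each with its signals, and the signals that follow a pair of V genes next to the D genes and the pair at the far end of the locus. They are shown because the J, D and nearer V segments lie where the counts of the B cell library were low relative to E6.43. The last V genes lie at the far end of the locus, where the counts were not low. All are read 5′ to 3′ on the reverse strand of chromosome 12 of GRCm38, and capitals mark the 7 bases at the place of the heptamer and the 9 bases at the place of the nonamer.

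Ighj3 with 39 bases before it, chr12:113429085-113429171: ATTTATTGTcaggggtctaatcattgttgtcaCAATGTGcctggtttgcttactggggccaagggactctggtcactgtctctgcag

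Ighd3-2 with 28 bases on each side, chr12:113448186-113448257: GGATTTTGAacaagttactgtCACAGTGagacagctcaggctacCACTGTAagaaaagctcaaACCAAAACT

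Ighd2-8 with 28 bases on each side, chr12:113450823-113450895: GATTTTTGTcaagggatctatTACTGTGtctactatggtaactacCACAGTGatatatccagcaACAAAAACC

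Ighd1-1 with 28 bases on each side, chr12:113482142-113482220: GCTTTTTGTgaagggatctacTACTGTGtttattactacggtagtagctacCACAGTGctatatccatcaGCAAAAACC

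The 39 bases after Ighv2-2, chr12:113588228-113588266: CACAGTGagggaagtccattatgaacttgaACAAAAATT

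The 39 bases after Ighv5-4, chr12:113597407-113597445: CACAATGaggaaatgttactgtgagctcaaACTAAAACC

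The 39 bases after Ighv1-84, chr12:115980663-115980701: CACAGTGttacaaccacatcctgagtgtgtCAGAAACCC

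The 39 bases after Ighv1-85, chr12:115999989-116000027: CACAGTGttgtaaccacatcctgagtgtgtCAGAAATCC

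The consensus heptamer after a segment is CACAGTG, and before a segment it is CACTGTG. Of all 113 annotated V genes, 81 had CACAGTG directly after the gene and 103 matched at least 6 of its 7 letters. All 19 annotated D genes matched at least 5 letters of CACAGTG after the segment, and 7 of them matched all 7. Before the segment, 0 of the 19 D genes matched all 7 letters of CACTGTG and 14 matched at least 6. Of the 4 annotated J genes, 0 matched all 7 letters of it and 2 matched at least 6. The lowest match before a D or J gene was 1 letter. Anywhere in the 39 bases after the gene, on the strand of the gene, CACAGTG was found for 82 of 113 V genes (72.6%) but in 90 of 13647 windows of the same length at SNPs of chromosome 12 outside the locus (0.659%). The heptamers after Ighv2-2 and Ighv1-85 were identical, and their nonamers matched the consensus ACAAAAACC at 7 and 5 letters. The full ACAAAAACC was found in the 39 bases after 3 of 113 V genes (2.65%), and in 4 of the 13647 windows outside the locus (0.0293%). The coverage of a segment is carried by few bases. Both SNPs of Ighj3 were bases 1 and 2 of the 48-base segment, and the single SNPs of Ighd3-2, Ighd2-8 and Ighd1-1 were base 10 of 16, base 12 of 17 and base 15 of 23, so the counts of a segment come from reads that reach one or both of its ends.

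The libraries held 19471576, 13036005 and 10863972 allelic counts in all (E6.2, E6.43, E15.10). Counts were scaled to counts per 1000000 autosomal counts of the library (CPM). Values of all libraries that follow each other stand in the order E6.2, E6.43, E15.10. With 1 library a group there is no test of such levels, and a ratio past 1.5-fold in either direction was called. E6.2 and E6.43 were close in their coverage of the genome, with 17.3% and 15.99% of autosomal counts at SNPs whose surrounding 10 kb had a GC content under 0.4. E15.10 had 6.39% there, and since the V genes lie in DNA of low GC content, ratios that involve E15.10 are given as counted and again relative to autosomal SNPs of the same GC content within 10 kb. For this, GC content was rounded to steps of 0.05, so the same GC content means the same step. Genes of similar GC content on either side of a step's edge can therefore be corrected by different amounts. Expression markers cannot be read from DNA, but other antigen receptor loci bear on the labels. The J and constant segments of the kappa light chain (Igk) had an E6.2/E6.43 ratio of 0.372 (0.329 to 0.421), against 1.05 for the V genes of Igk. The J segments of the T cell receptor alpha chain (Tcra) had a ratio of 2.05 (1.92 to 2.19). The T cell libraries also differed from each other at these segments. E6.43/E15.10 was 1.98 (1.79 to 2.20) as counted for the J segments of Tcra and 2.01 relative to SNPs of the same GC content. For the J and constant segments of Igk it was 1.69 (1.49 to 1.92) and 0.905.

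In the B cell library, the counts of the J, D and nearest V genes were far below those of the T cell library of the same donor, while the ratios of the constant genes and the distal V genes were close to 1. The E6.2/E6.43 ratio was 1.07 (1.04 to 1.10) for the constant genes, 0.347 (0.270 to 0.443) for Ighj3 and 0.188 (0.139 to 0.25) for the D genes. From there it rose to 0.384 (0.353 to 0.418) for Adam6b and Adam6a, 0.54 (0.529 to 0.551) for the proximal V genes, 0.881 (0.867 to 0.894) for the middle and 1.09 (1.07 to 1.10) for the distal V genes. Over the whole locus the ratio was 0.889. Whether fewer cells or fewer copies in each cell held a segment cannot be told apart from these counts.

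Of the 110 genes of the locus with at least 100 counts in the pair of libraries, 36 were at least 1.5-fold lower in E6.2 than in E6.43, where 1.26% of all autosomal genes were. The 36 genes were Ighm, Ighj3, Ighd2-8, Adam6b, Adam6a, 28 of 33 proximal V genes and 3 of 33 middle V genes, with 0 of 34 distal V genes. Only Ighv1-71 was at least 1.5-fold higher, as were 1.93% of autosomal genes. Over runs of 50 neighbouring SNPs, which average out single genes, 4 of 13 runs in the locus were 1.5-fold lower, against 0.27% of 8522 autosomal runs.

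**Figure D1:**
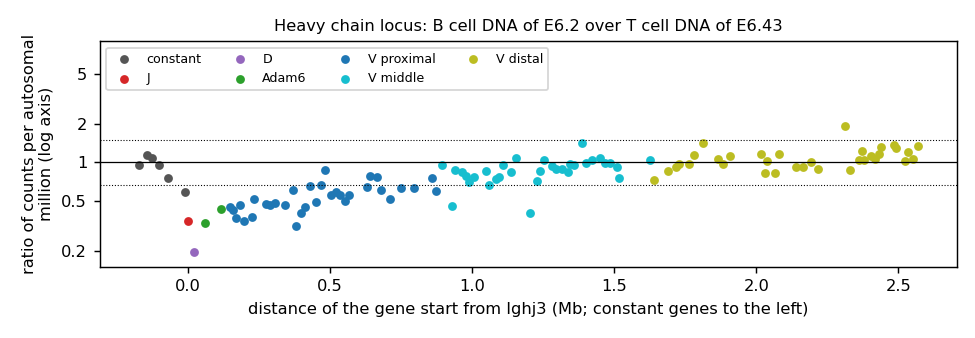
Ratio of CPM, E6.2 (B cell DNA) over E6.43 (T cell DNA), on a log axis for each heavy chain gene with at least 100 counts in the pair, against the distance of the gene from Ighj3 in Mb. Dotted lines mark 1.5-fold. The ratio is lowest at Ighd2-8 (0.197) and rises across the V genes. Some single genes of the middle group already lie above 1, such as Ighv1-30 (1.41), and the distal group as a whole is at 1.09.

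The constant genes, which encode the effector part of the antibody and define its class, differed little between E6.2 and E6.43. Ighg2c, the gene of an IgG heavy chain and the best covered constant gene, had 357, 315 and 463 CPM, from 6746, 3992 and 4924 counts at 41 SNPs. Ighg2b had 281, 261 and 392 CPM, and Ighg1 had 61.7, 65.0 and 88.8. In all 3 of these genes E15.10 was highest, and the E6.2/E6.43 ratio stayed between 0.949 and 1.13. Igha, the gene of the IgA heavy chain, had 27.8, 29.1 and 49.1 CPM, and its E6.2/E6.43 ratio was 0.955 (0.835 to 1.09).

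The constant genes nearest to the J segments had the lowest E6.2/E6.43 ratios of the group. Ighg3 had 24.3, 32.3 and 34.5 CPM, with an E6.2/E6.43 ratio of 0.752 (0.657 to 0.861). Ighm, which encodes the heavy chain of IgM and lies next to the J segments, had 49, 56 and 52 counts at its only SNP, or 2.59, 4.42 and 4.89 CPM. Its ratio of 0.586 (0.391 to 0.876) was past 1.5-fold, but the upper limit of the interval was not. The SNP of Ighm lies at 113418968, and its counts alone cover this gene.

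Ighj3, a J segment, had 102, 197 and 171 counts, which are 5.39, 15.5 and 16.1 CPM. Both T cell libraries were close to each other, with an E6.43/E15.10 ratio of 0.966 (0.783 to 1.19), and E6.2 was below both. Its adjoining SNPs at 113429131 and 113429132 gave nearly the same counts in each library, 52 and 50, 98 and 99, and 86 and 85, since they are read by the same fragments. The E6.2/E15.10 ratio was 0.335 (0.260 to 0.431) and changed to 0.327 relative to SNPs of the same GC content.

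The D genes, which supply the middle of the third variable loop of the heavy chain, had the lowest E6.2/E6.43 ratio of the parts. Ighd2-8 had 33, 112 and 69 counts, and its E6.2/E6.43 ratio was 0.197 (0.130 to 0.293). Ighd3-2, the D gene with a SNP that lies closest to the J segments, had 7, 61 and 36 counts and a ratio of 0.0769 (0.0297 to 0.168). Ighd1-1, the D gene with a SNP farthest from J, had 21, 45 and 20 counts and a ratio of 0.313 (0.177 to 0.536). E6.2 was below E6.43 at each of these SNPs, and the intervals of Ighd3-2 and Ighd1-1 do not overlap. Ighd3-2 and Ighd1-1 had fewer than 100 counts in the pair and were therefore not among the genes called. The E6.2/E15.10 ratio of the D genes was 0.274 (0.199 to 0.375). Ighd5-6, Ighd5-8 and Ighd6-2 had 0 counts in every library, which allows at most 0.159, 0.237 and 0.282 CPM.

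Adam6b and Adam6a, a pair of ADAM-family genes expressed in the testis and needed for male fertility, lie within the immunoglobulin locus before the first V gene, Adam6b among the D genes. Adam6b had 18.1, 54.8 and 30.9 CPM. Adam6a, nearer to the V genes, had 26.9, 62.3 and 39.5 CPM. The E6.2/E6.43 ratios were 0.330 (0.289 to 0.376) and 0.432 (0.386 to 0.484), so the ratio was lower for Adam6b than for Adam6a. E6.2 was lowest in both genes, and the libraries of T cell DNA differed from each other, with E6.43/E15.10 ratios of 1.78 and 1.58. Relative to SNPs of the same GC content within 10 kb, E6.43/E15.10 was 1.73 for Adam6b and 0.845 for Adam6a, and for both together 1.11 instead of 1.66. The median GC content of 0.429 for Adam6b and 0.406 for Adam6a fell in different steps of 0.05. How far the difference between these genes depends on the place of the steps was not tested.

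**Figure D2:**
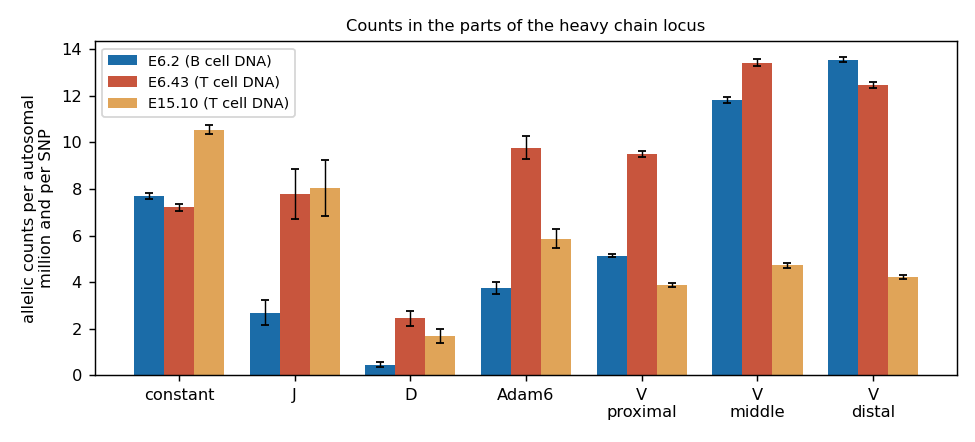
Allelic counts as CPM and per SNP in each part of the heavy chain locus and each library, with 95% intervals of counting error. E6.2 is the lowest library at J (2.70), D (0.461) and Adam6 (3.75), and E15.10 the lowest at the V genes (3.89, 4.72 and 4.23).

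The V genes encode most of the antigen-binding domain of the heavy chain, and those next to the D genes were the least covered in E6.2 relative to E6.43. Ighv2-1, the first V gene, had 114, 172 and 73 counts and an E6.2/E6.43 ratio of 0.444 (0.347 to 0.566). The following genes, Ighv2-2, Ighv5-4, Ighv2-3 and Ighv5-6, had ratios of 0.421, 0.364, 0.461 and 0.346. Over all 100 V genes with enough counts, the lowest ratios were those of Ighv2-7 (0.314, 0.239 to 0.410), Ighv5-6 (0.346, 0.295 to 0.403) and Ighv5-4 (0.364, 0.307 to 0.431). All 3 belong to the proximal group. Its best covered genes, Ighv3-1 with 1591, 1914 and 505 counts and Ighv2-6 with 1293, 1878 and 733 counts, had ratios of 0.557 (0.521 to 0.596) and 0.461 (0.430 to 0.496). The 5 proximal genes that were not called lower were Ighv7-1, Ighv7-2, Ighv16-1, Ighv9-1 and Ighv3-6, with ratios from 0.668 to 0.868, and they are named here because of these values.

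In the middle group, the best covered genes Ighv1-43 and Ighv1-23 had ratios of 0.754 (0.722 to 0.787) and 0.838 (0.803 to 0.875). Ighv1-43 had 4398, 3911 and 1872 counts, and Ighv1-23 had 4717, 3771 and 816. The 3 middle genes called lower, named after their values were seen, were Ighv13-2 (0.453), Ighv1-4 (0.658) and Ighv1-13 (0.399). Ighv1-30, in contrast, was among the genes with the highest ratios at 1.41 (1.27 to 1.57).

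At the far end of the locus, the last 5 genes Ighv1-81, Ighv1-82, Ighv1-83, Ighv1-84 and Ighv1-85 had E6.2/E6.43 ratios of 1.31, 1.03, 1.21, 1.07 and 1.34. Ighv1-85, the last V gene, had 5907, 2959 and 1465 counts, the most of the distal group, and Ighv1-76 had 5548, 3490 and 854 counts and a ratio of 1.07 (1.02 to 1.11). All of these genes were at or above the autosomal level of the pair, and Ighv1-56 (1.42) and Ighv1-71 (1.93, 1.54 to 2.43) had the highest ratios of all V genes. Ighv1-71 had 308, 107 and 36 counts at 2 SNPs.

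The ratio followed the order of the V genes. Across the 100 V genes the Spearman correlation of the E6.2/E6.43 ratio with the place in the order was 0.858, as a description, since the genes share their libraries. For the T cell libraries E6.43 and E15.10 it was 0.274 over 97 V genes. A running median over 9 V genes first passed the 1.5-fold line at Ighv3-8, the 34th of these genes and 0.893 Mb from Ighj3, and first reached 0.9 at Ighv1-22, the 54th, at 1.32 Mb. V families are not evenly spread along the locus, so family and place in the order cannot be told apart, and the ratios differed between families. The median was 0.454 in the 8 genes of family Ighv5 and 0.460 in the 9 genes of Ighv2, which lie close to D. It was 0.593 in 4 Ighv14 genes, 0.597 in 4 Ighv9 genes and 0.778 in 4 Ighv6 genes. The 51 genes of Ighv1, all of them middle or distal, had a median of 0.997 and a range from 0.399 to 1.93, and the 6 genes of Ighv8 a median of 0.973.

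Outside the locus the change did not continue. The 5 nearest genes beyond the constant genes (Nudt14, Btbd6, Brf1, Pacs2 and Tedc1) had E6.2/E6.43 ratios from 0.910 to 1.03. The 5 nearest beyond the V genes (Zfp386, Vipr2, Wdr60, Esyt2 and Ncapg2) had ratios from 1.09 to 1.27. None of these 10 was called. Of 10 genes of the recombination machinery, among them Rag1 (1.01) and Dntt (0.989), which encodes the polymerase that adds bases at the joints, the ratios lay between 0.915 and 1.16 and 0 were called.

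The pattern was present on both parental chromosomes, each compared with the autosomal total of its own allele. For Ighj3 the E6.2/E6.43 ratio was 0.338 (0.246 to 0.460) for B6 counts and 0.364 (0.238 to 0.547) for CAST counts, and for the D genes 0.20 and 0.168. For the constant genes both alleles were near 1, at 1.05 and 1.10. Across the V genes the alleles differed. In the proximal group the ratio was 0.499 (0.486 to 0.514) for B6 and 0.593 (0.575 to 0.611) for CAST. In the middle group it was 0.792 (0.776 to 0.807) for B6 and 1.02 (0.997 to 1.05) for CAST, and in the distal group 1.05 and 1.17. When the counts of 9 neighbouring V genes were summed, the CAST ratio first reached 0.9 at Ighv9-4, the 33rd gene and 0.871 Mb from Ighj3. The B6 ratio first reached it at Ighv1-34, the 60th gene, at 1.42 Mb.

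**Figure D3:**
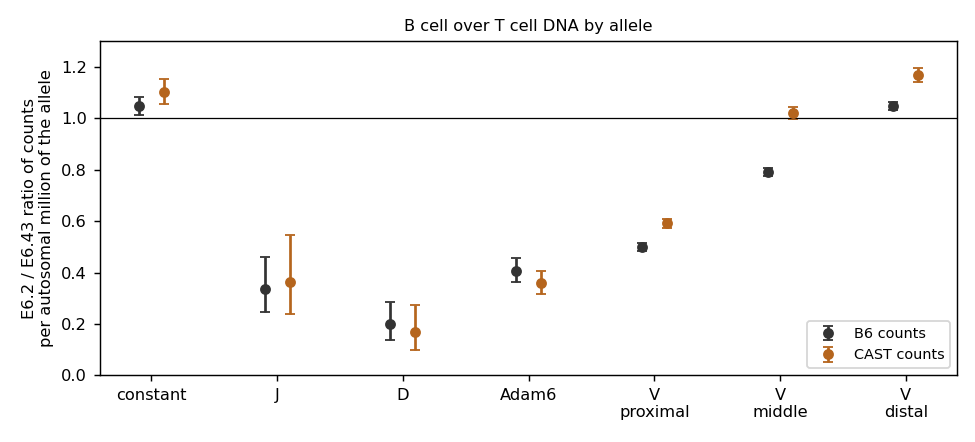
E6.2/E6.43 ratio of the B6 counts and of the CAST counts in each part of the locus, each relative to the autosomal counts of the same allele, with 95% intervals of counting error. Both alleles are low at J and D, and in the middle V genes B6 is at 0.792 and CAST at 1.02.

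This difference can be read as allelic imbalance (AI), the share of B6 among all allelic counts, which had a median over autosomal genes of 0.538, 0.538 and 0.537. In the middle V genes AI was 0.551, 0.613 and 0.613. Fisher's exact test (two-sided, adjusted over 7 parts and 3 pairs of libraries) compares libraries, not conditions, and gave a difference of -0.0620 between E6.2 and E6.43 (adjusted p = 2.88e-58). AI was lower in E6.2 in 30 of 34 middle V genes. In the proximal V genes AI was 0.519, 0.562 and 0.598, lower in E6.2 than in E6.43 by Fisher's exact test (adjusted p = 1.24e-15) and in 25 of 34 genes. In the distal V genes it was 0.654, 0.679 and 0.670, with an adjusted p of 7.37e-14 for E6.2 and E6.43 by the same exact test and a lower value in 18 of 34 genes. The comparison of E6.2 with E15.10 shares the E6.2 library and had differences of -0.0788 (proximal), -0.0629 (middle) and -0.0165 (distal), of which the last turned to 0.0174 by the median of single SNPs. In the T cell libraries, AI of the middle V genes differed by -0.000927 (Fisher's exact test, adjusted p = 0.881). By the median of single SNPs this difference was -0.0312, where that of E6.2 minus E6.43 was -0.0696. Without the best covered gene these differences were 0.0201 and -0.0653. AI of the proximal V genes was lower in E6.43 than in E15.10 (difference -0.0362) with an adjusted p of 3.42e-07 by the exact test, but the difference was 0.00891 in the other direction by the median of single SNPs. Between E6.2 and E6.43, all 3 V groups passed the test also with SNPs at least 300 bp apart.

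AI of the constant genes was 0.637 and 0.649 in the pair with the same donor, which did not pass Fisher's exact test (adjusted p = 0.137). Nor did Ighj3 with 0.627 and 0.645 (adjusted p = 0.840), the D genes with 0.656 and 0.615 (0.723) or Adam6b and Adam6a with 0.552 and 0.521 (0.203), all by the same exact test. The constant genes depended on Ighg2c, the best covered, with AI of 0.728 and 0.713. Every other constant gene was lower in E6.2 than in E6.43, but by gene only Ighg2b passed. The difference of the constant genes was -0.0116 with all counts. It was -0.0413 without Ighg2c and -0.0409 by the median of single SNPs. Between E6.43 and E15.10 the constant genes differed by 0.0223, which passed the exact test, but not with SNPs at least 300 bp apart. The low counts of Ighj3 and the D genes leave wide intervals of AI, from 0.531 to 0.715 for Ighj3 in E6.2 and from 0.530 to 0.763 for the D genes. Adam6b and Adam6a together were at 0.476 in E15.10, lower than in E6.2 by Fisher's exact test (adjusted p = 0.00610).

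By gene, 39 of 113 heavy chain genes differed in AI between E6.2 and E6.43 by Fisher's exact test adjusted over all autosomal genes, where 13.8% of those genes did. AI was lower in E6.2 in 30 of them and higher in 9, against 7.06% and 6.76% of autosomal genes. The middle V genes held 16 of the 30, among them Ighv3-8, with AI of 0.448, 0.667 and 0.648 (adjusted p = 5.69e-13 by the exact test for E6.2 and E6.43). Ighv1-22 had AI of 0.434, 0.552 and 0.473, and its adjusted p by the exact test was 3.74e-06. In the distal group Ighv1-76 had AI of 0.608, 0.708 and 0.569 with an adjusted p of 9.78e-19 by the exact test. With SNPs at least 300 bp apart, which share few reads, 1 gene of the locus differed in AI between these libraries, and no autosomal share is given for that setting. Between E6.2 and E15.10 33 of 110 genes differed (18.8% of autosomal genes), and between E6.43 and E15.10 34 of 111 (18.7%).

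**Figure D4:**
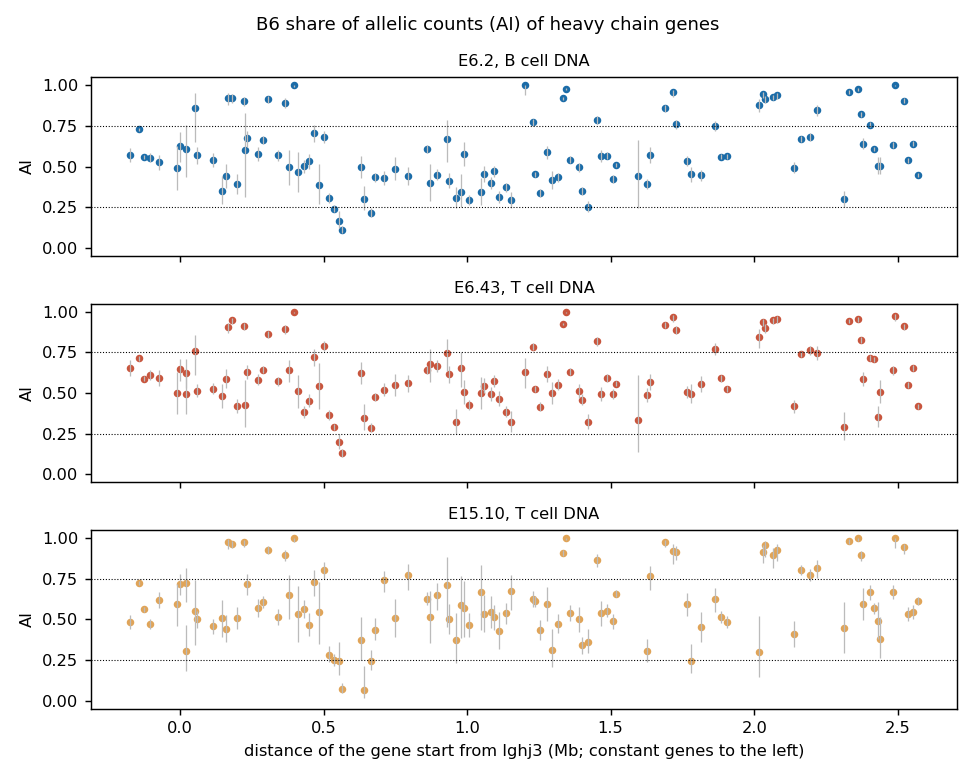
AI of each heavy chain gene with at least 10 counts against its distance from Ighj3 in Mb, in each library, with 95% Wilson intervals. Dotted lines mark 0.25 and 0.75, and 21 genes lie above 0.75 in all 3 libraries.

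Many V genes were far from equal counts of the alleles in B and T cell DNA alike. AI was under 0.25 or over 0.75, the range in which the study suspected loss of heterozygosity (LOH), in 31 of 113, 29 of 114 and 33 of 111 genes. Of all autosomal genes 5.32%, 5.56% and 5.24% were in this range. AI was over 0.75 in every library in 21 genes, all of them V genes, for example Ighv5-4 (0.920, 0.903 and 0.977), Ighv2-3 (0.920, 0.949 and 0.965) and Ighv1-23 (0.920, 0.925 and 0.909). Ighv1-82 had 0.905, 0.910 and 0.943. Ighv11-1 (0.167, 0.197 and 0.242) and Ighv14-2 (0.109, 0.129 and 0.0704) were under 0.25 in every library. The constant genes, Ighj3, Adam6b and Adam6a were never in this range.

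Ighv5-15 had 0 CAST counts among 351, 586 and 172 counts, which allows a CAST share of up to 0.855%, 0.512% and 1.74%. Ighv1-81, the first of the last 5 V genes, had 0 CAST counts of 598, 9 of 307 and 0 of 58, where a count of 0 allows up to 0.502% in E6.2 and 5.17% in E15.10. Ighv1-13 had 0 CAST counts of 59, which allows up to 5.08% in E6.2, then 37 of 99 and 0 of 4. It was the gene with the largest difference in AI between E6.2 and E6.43 among those that passed Fisher's exact test, with 1.00 against 0.626 (adjusted p = 3.14e-07). The V genes are a family of similar sequences and may share reads or lose them in alignment, so shares that lie far from 0.5 in every library may not be counts of 1 gene copy on each chromosome, which was not tested.

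Against E15.10, the other T cell library, the V genes had ratios as counted well above those of the constant genes. E6.2/E15.10 was 0.730 (0.712 to 0.749) for the constant genes, 0.335 for Ighj3, 0.274 for D, 0.639 for Adam6b and Adam6a, and rose to 1.32, 2.5 and 3.20 for the proximal, middle and distal V genes, and E6.43/E15.10 was 0.684, 0.966, 1.46, 1.66, 2.44, 2.84 and 2.94 for the parts in this order. The genes outside the locus moved the same way, from 0.452 to 0.709 beyond the constant genes and from 1.81 to 2.61 beyond the V genes for E6.2/E15.10. The median GC content within 10 kb of the SNPs was 0.501 for the constant genes, 0.470 for Ighj3, 0.447 for D, 0.408 for Adam6b and Adam6a, and 0.401, 0.392 and 0.384 for the V groups. Of 106 genes, 5 were at least 1.5-fold lower and 74 higher in E6.2 than in E15.10, where 24.8% and 32.6% of autosomal genes were, and of 107 genes 98 were higher and 2 lower in E6.43 than in E15.10 (30.1% and 21.5% of autosomal genes).

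Relative to autosomal SNPs of the same GC content within 10 kb, E6.2/E15.10 was 1.14 for the constant genes, 0.327 for Ighj3, 0.267 for D, 0.409 for Adam6b and Adam6a, 0.636 for the proximal, 1.17 for the middle and 1.39 for the distal V genes. Of the 31 proximal V genes, 19 were then at least 1.5-fold lower in E6.2, and of the 106 genes of the locus 24 were lower and 31 higher, where 8.92% and 11.1% of autosomal genes were. The T cell libraries compared with each other in the same way had ratios of 1.00, 0.940, 1.42, 1.11, 1.26, 1.43 and 1.38 for the parts in this order, and 45 of 107 genes were at least 1.5-fold higher and 0 lower in E6.43 (9.4% and 7.82% of autosomal genes). E6.2/E6.43 changed little by this step, to 1.14, 0.347, 0.188, 0.372, 0.506, 0.824 and 1.01. What part the coverage of E15.10 has in the remaining differences of the V genes was not tested.

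**Figure D5:**
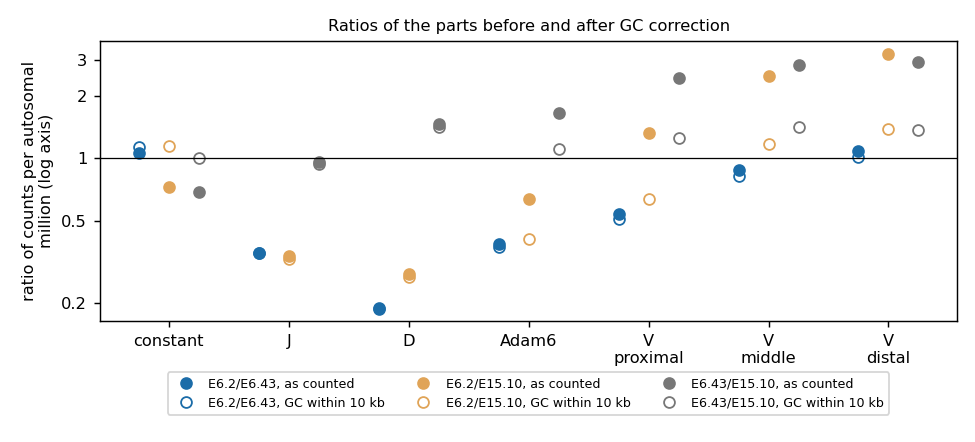
Ratios of CPM between the libraries in each part of the locus on a log axis, as counted (filled) and relative to autosomal SNPs of the same GC content within 10 kb (open). At the proximal V genes E6.2/E15.10 is 1.32 as counted and 0.636 after this step, and E6.2/E6.43 is 0.54 and 0.506.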

How the data were processed

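Exome capture (Agilent SureSelect Mouse All ExonV6) was applied to DNA of sorted cells in 3 libraries. The authors assigned reads to the B6 or CAST allele at SNPs and deposited, for each library, the allelic counts of each gene with the position and counts of each SNP as comma-separated lists (another kind of value, deposited by the authors), on build GRCm38 (mm10). The submitters' processing notes name cutadapt 1.14, Trim Galore, STAR 2.5.4a, SAMtools and GATK. Per the study's methods, the exome reads were aligned and counted on the basis of the ASEReadCounter* pipeline, whose use for RNA reads kept only uniquely aligned reads. Whether that setting was the same for the exome reads, and how duplicates were treated, is not given in the sources used here. The methods leave out genes under 10 counts and genes with AI under 0.25 or over 0.75, but the library files hold both. Unique alignment would lose reads at similar V genes, and reads that span a joint may not align. A deposited table of the whole series holds the counts and the fraction AI of each gene that reached 90 counts, which served as an alternative (its totals differed from the library files in 0 genes). Its interval limits, p-value of a binomial test and calls, which are the authors' own results, were not used. Columns of other samples used numbered 0.

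Members were the SNPs of chromosome 12 within the locus, and no position was listed more than once. Genes were placed and named with GENCODE M21, and 7 of 117 identifiers were named by position. Sequences came from the GRCm38 genome. CPM of autosomal counts and AI, B6 counts over all counts, were computed with Python 3.11.15, numpy 2.4.6, pandas 2.3.3 and scipy 1.17.1. Ratios have exact (Clopper-Pearson) and AI has Wilson intervals at 95%, and a count of 0 was read as at most 3 counts. Genes needed at least 100 counts in a pair for a ratio and at least 10 in each library for AI. AI was compared by two-sided Fisher's exact tests with Benjamini-Hochberg adjustment at 0.05, over all autosomal genes or over 7 parts in 3 pairs. The scripts were tested on simulated data.

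Named were all constant, J, D and Adam6 genes, the 5 V genes nearest to and farthest from D with at least 100 counts, the 2 best covered of each V group, the 3 lowest and highest ratios, and the 5 genes flanking each side, with 10 recombination genes as a count. One further gene of that list is not reported here. The V genes at which a running value passed a limit, and those given as examples of AI, were named after their values were seen. The members, lists and tests were chosen with earlier results of these data known. Alternatives were other denominators, SNPs at least 300 bp apart, GC content within 150 bp, thin SNPs left out, single alleles, medians, the best covered gene left out and other limits. GC content within 10 kb was chosen after seeing the data.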

Additional observations from a re-analysis of the deposited data

Results flagged for a closer look

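For 3 parts of the locus the direction of the B cell library against a T cell library depended on which T cell library was used, and the difference between these ratios was not tested. For the constant genes E6.2/E15.10 was 0.730 and E6.2/E6.43 was 1.07. For the proximal V genes it was 1.32 against 0.54, and for the middle V genes 2.5 against 0.881. Relative to autosomal SNPs of the same GC content within 10 kb, the ratios of these parts were 1.14, 0.636 and 1.17 for E6.2/E15.10 and 1.14, 0.506 and 0.824 for E6.2/E6.43.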

How the results depend on the processing

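No paired analysis was possible because each group held 1 library, and for the same reason no library could be left out. All 78 alternative values of the E6.2/E6.43 ratio by part kept their side of the 1.5-fold limit, and all but 2 kept their direction from 1. The exceptions were the constant genes with SNPs at least 300 bp apart (0.976) and the middle V genes with CAST counts (1.02). Ratios that were not called also crossed 1 in the constant genes with GC content within 10 kb (E6.2/E15.10, 1.14, and E6.43/E15.10, 1.00) and in Ighj3 with CAST counts (E6.43/E15.10, 1.22). The ratios against E15.10 of the constant genes, Adam6, the V genes and the locus depended on GC content, and the cause was not tested. With GC content within 10 kb, those of Ighj3 and D changed little. They went from 0.335 to 0.327 and from 0.274 to 0.267 (E6.2/E15.10), and from 0.966 to 0.940 and from 1.46 to 1.42 (E6.43/E15.10). With GC content within 150 bp, D was at 0.201 (E6.2/E15.10) and 1.10 (E6.43/E15.10). With GC content within 10 kb, E6.2/E15.10 turned to 0.636 in the proximal V genes and was 1.17, 1.39 and 1.11 in the middle and distal V genes and the locus, and E6.43/E15.10 was 1.11 (Adam6), 1.26, 1.43, 1.38 and 1.31. With GC content within 150 bp, E6.43/E15.10 of Adam6 was 1.01. With B6 counts, E6.2/E15.10 of Adam6 was 0.742 and E6.43/E15.10 of D 1.56. With CAST counts, E6.2/E15.10 of the proximal V genes was 1.58 and E6.43/E15.10 of the constant genes 0.643. The median of SNPs gave 0.684 for Adam6 (E6.2/E15.10), and E6.43/E15.10 of D was 1.59 without its best covered gene.

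Differences in AI moved with the median of SNPs. They became -0.0409 (constant), -0.0696 (middle V) and -0.0147 (distal V) for E6.2 minus E6.43. For E6.2 minus E15.10 they were -0.0357, -0.101 and 0.0174 (proximal, middle and distal V). For E6.43 minus E15.10 they were 0.0447 (constant), 0.00891, -0.0312 and 0.0321 (V groups). Without the best covered gene they were -0.0413 (constant, E6.2 minus E6.43), 0.321 (D), 0.0702 (Adam6) and -0.00185 (distal V) for E6.2 minus E15.10, and 0.211 (D), 0.0201 (middle V) and 0.0230 (distal V) for E6.43 minus E15.10. With SNPs at least 300 bp apart the distal V genes (E6.2 minus E15.10, -0.0186) and the constant and proximal V genes (E6.43 minus E15.10, 0.0279 and -0.0239) no longer passed, with fewer counts tested.

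At 2-fold, 21 genes were lower and 0 higher in E6.2 than in E6.43, 2 were lower in E6.2 than in E15.10 and 0 lower in E6.43 than in E15.10. With GC content within 10 kb, 24 were lower and 31 higher in E6.2 than in E15.10, and 0 lower and 45 higher in E6.43. Lower in E6.43 than in E15.10 was 1 gene with GC content within 150 bp and 1 with SNPs 300 bp apart, a setting at which 2 genes were higher in E6.2 than in E6.43. With it, 1, 6 and 7 genes differed in AI (E6.2 and E6.43, E6.2 and E15.10, E6.43 and E15.10). With limits of 0.4 and 0.6, 66, 66 and 64 genes lay outside them in the libraries of E6.2, of E6.43 and of E15.10. Shares of all autosomal genes are given further above for GC content within 10 kb only. The other counts of this paragraph therefore cannot be set against the rest of the genome.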
